A study of Mus musculus with 10 samples.

Results

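Proteasome subunit genes were taken as the genes whose single platform symbol is Psm, 1 letter from a to g and a number, and 47 of 18193 genes with a single symbol met that rule. Each gene was read from the probe set with the highest mean log2 signal over the 10 arrays. The filter on dim signals kept 46 of the 47 among 14581 genes tested: a probe set had to exceed its array's 40th percentile, a log2 signal of 4.81 to 5.12, on at least 2 arrays. Psma8, an alpha subunit of the testis, did not pass. Psmb11, the beta subunit of thymic epithelium, passed but ranged only from 0.94 to 5.30, so the medians given here leave it out. On the other 45 genes every array read between 9.01 (Psmf1) and 14.42 (Psmb4), and they are described apart as the core particle, the immunoproteasome subunits, the regulatory particle, the activators with the inhibitor, and the assembly chaperones. Psme2 is not among the members, because its probe set also carries the symbol Psme2b.

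The cells were leukaemia cells of PML-RARα transgenic mice. The transgene, which all groups carried, encodes the fusion protein found in most patients with acute promyelocytic leukaemia (APL) and stops myeloid cells short of granulocytes. Leukaemic marrow cells of FVB N/J mice aged 8-10 weeks were marked with GFP by a retrovirus, expanded by transplantation into syngeneic recipients and sorted by flow cytometry. The untreated groups were the SC, PD and TD subsets (UNSC, UNPD, UNTD), names that the labels do not spell out. RAPD and RATD were the PD and TD subsets of marrow treated with ATRA (all-trans retinoic acid), which binds RARα, at 10 mg/kg for 5 days by the treatment protocol and for 3 to 5 days by the source names. Each group had 2 arrays, called biological replicates in the labels, which do not say whether each came from its own animal, so that the p-values measure the spread between these samples. The sources used here do not give the promoter of the transgene, the number of leukaemia lines or any pooling of recipients.

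The 26S proteasome degrades proteins tagged with ubiquitin. Its 20S core is a barrel of alpha rings, which gate entry, around beta rings, in which Psmb6, Psmb7 and Psmb5 carry the caspase-like, trypsin-like and chymotrypsin-like sites. Interferon and the haematopoietic lineage favour Psmb9, Psmb10 and Psmb8 in their place, which gives the immunoproteasome and changes the peptides offered to class I molecules. The 19S regulatory particle sits on the core: its base holds a ring of ATPases (Psmc1 to Psmc6) that unfold substrates, with Psmd1, Psmd2 and the ubiquitin receptor Psmd4, and its lid holds the deubiquitinase Psmd14. Subunit genes are known to be driven together by the factor Nfe2l1 when proteasome capacity is short. PML-RARα itself is known to be degraded through this pathway under ATRA.

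A call is an adjusted p below 0.05 in limma with Benjamini-Hochberg adjustment over all 14581 genes, differences are on the log2 scale, and errors of a difference are its standard error from that fit. The arrays differed in the shape of their signal distribution. The 75th percentile of log2 signal was 8.28 and 8.35 in UNPD and 8.41 in RAPD replicate 2, against 8.60 to 8.78 on the other 7 arrays. Among the 45 genes the SD of the difference between replicates was 0.14 in UNSC, 0.17 in UNTD, 0.23 in UNPD, 0.25 in RATD and 0.31 in RAPD. RAPD replicate 2 read higher than RAPD replicate 1 for 39 of 45 genes. Defining promyelocyte and granulocyte genes (5 of 6 measured, all above the dim level in every group) were present, while the summed signal of 4 erythroid genes stayed between 43 and 245, of 4 B cell genes between 52 and 143 and of 3 T and NK cell genes between 90 and 791. The summed signal of 8 monocyte and dendritic genes was 2544 to 2764 in UNSC, 3523 to 5060 in UNPD, 29101 to 34817 in UNTD, 2236 to 3555 in RAPD and 14837 to 30987 in RATD, and 7 of the 8 were called higher in UNTD against UNSC. That of 7 macrophage genes was 1955 to 2006 in UNSC and 7557 to 9464 in UNTD. Of 5 promyelocyte and granulocyte genes, 4 were called lower in UNTD against UNPD, with sums of 182637 to 189643 in UNPD and 79660 to 107990 in UNTD. Of 6 mature neutrophil genes, 4 were called higher in UNPD against UNSC, with sums of 25945 to 28025 in UNSC and 57562 to 64035 in UNPD. The part of these genes' cells in the differences below was not tested. In bulk RNA, fewer cells of a type and less RNA per cell cannot be told apart.

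Across the 5 groups, UNPD carried the highest mean for 31 of the 45 genes and UNTD the lowest for 29. Relative to the mean of the UNSC arrays, the median of the 45 genes stood at 0.59 and 0.52 on the UNPD arrays, 0.13 and 0.42 on the RAPD arrays, 0.0046 and -0.13 on the RATD arrays, and -0.17 and -0.26 on the UNTD arrays. The UNPD arrays therefore lay above all 8 others and the UNTD arrays below all 8 others. Both held for 23 of the 45 genes, while 8 were highest in UNPD but lowest in another group than UNTD, 6 were lowest in UNTD but highest elsewhere, and 8 were neither. Psme4, Psmc6, Psmd1 and Psma1 had their lowest mean in UNPD, and Psmb10, Psmb9 and Psma2 had theirs in UNSC. The 4 alpha ring chaperones Psmg1 to Psmg4, with Psmf1 and Psmd2, were lowest in RATD, and Psma6, Psmb10, Psmd5, Psmd10, Psmd11 and Psme1 were highest in RAPD.

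**Figure D1:**
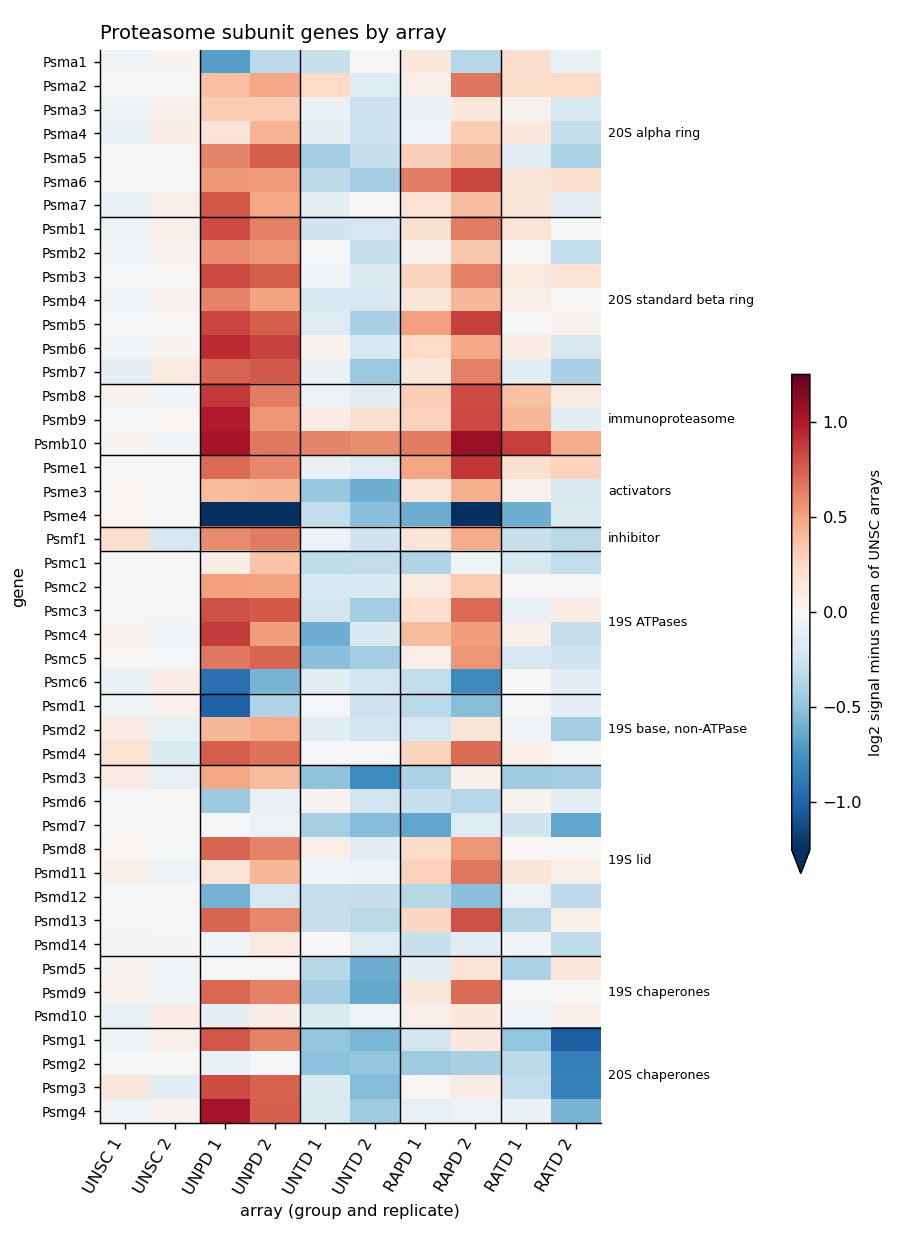
Log2 signal of 45 proteasome genes (rows, by role) on each of 10 arrays (columns), minus the mean of the UNSC arrays; red is higher and blue lower, and values beyond the scale take its end colour. Most rows are red in the UNPD columns, with Psme4, Psmc6, Psmd1 and Psma1 blue there.

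UNPD against UNSC compared the PD with the SC subset of untreated leukaemia. Proteasome genes rose broadly: 26 of 46 were called higher and 3 lower, against shares of 10.6% higher and 15.2% lower over all genes tested. Among the 6329 genes with a mean of 9 or more on the log2 scale, where the 45 members lie, the shares were 20.8% and 23.3%. The median difference of the 45 genes was 0.57, against 0.20 for all genes. On 34 of 46 genes both UNPD arrays lay above both UNSC arrays, and on 8 both lay below; over all genes tested the shares were 41.4% and 27.6%.

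All 7 standard beta subunits rose, with a median of 0.75. The largest of these was Psmb6, the caspase-like subunit, whose arrays read 12.32 and 12.39 in UNSC and 13.30 and 13.21 in UNPD. This is a difference of 0.89 ± 0.16, or 1.86-fold (adjusted p = 0.00282). Psmb5, the chymotrypsin-like subunit and the target of bortezomib, read 13.07 and 13.09 in UNSC and 13.92 and 13.83 in UNPD, a difference of 0.79 ± 0.16 (adjusted p = 0.00453). Psmb7, the trypsin-like subunit, read 10.68 and 10.92 against 11.53 and 11.57, a difference of 0.75 ± 0.21 (adjusted p = 0.0218). The groups did not overlap for any of these 3. The non-catalytic subunits Psmb3, Psmb1, Psmb2 and Psmb4 rose by 0.79, 0.72, 0.57 and 0.56.

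The alpha ring moved less evenly. Psma5, Psma7 and Psma6 rose by 0.68, 0.63 and 0.54, with adjusted p of 0.00716, 0.0173 and 0.0155. Psma2, Psma3 and Psma4 differed by 0.42, 0.32 and 0.30 and were not called. Psma1 pointed the other way: its arrays read 12.77 and 12.84 in UNSC and 12.12 and 12.48 in UNPD, a difference of -0.51 that was not called (adjusted p = 0.0935). The ring's median was 0.42.

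All 3 immunoproteasome subunits rose by about as much as the standard ones, with a median of 0.77. Psmb10 read 11.44 and 11.38 in UNSC and 12.44 and 12.07 in UNPD, a difference of 0.84 ± 0.20 (adjusted p = 0.00943). Psmb8 read 12.14 and 12.04 against 12.97 and 12.73, a difference of 0.76 ± 0.19 (adjusted p = 0.0116). Psmb9 read 11.68 and 11.73 against 12.69 and 12.26, a difference of 0.77 ± 0.23 (adjusted p = 0.0296). For each, both UNPD arrays lay above both UNSC arrays, UNPD replicate 1 being the higher of the UNPD arrays.

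In the regulatory particle, 4 of 6 ATPases rose, led by Psmc3 (0.78, adjusted p = 0.00795), with Psmc4, Psmc5 and Psmc2 at 0.70, 0.69 and 0.51; Psmc1 differed by 0.23 and was not called. Psmc6, the remaining ATPase with a call, fell: it read 11.97 and 12.14 in UNSC and 11.12 and 11.47 in UNPD, a difference of -0.76 ± 0.19 (adjusted p = 0.0144). In the base, the ubiquitin receptor Psmd4 rose by 0.72 (adjusted p = 0.0134), while the scaffold subunit Psmd1 fell by 0.70 (adjusted p = 0.0254). The scaffold subunit Psmd2 differed by 0.44 and was not called. The lid moved least: 2 of 8 genes rose, Psmd8 by 0.67 and Psmd13 by 0.66, and the median was 0.17, or -0.047 after quantile normalization. Psmd14, the deubiquitinase, read 13.22 and 13.29 in UNSC and 13.21 and 13.37 in UNPD, and the other lid genes, none of them called, differed by 0.44 (Psmd3), 0.30 (Psmd11), -0.40 (Psmd12), -0.28 (Psmd6) and -0.05 (Psmd7).

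Among activators, Psme1, the alpha subunit of the interferon-inducible 11S cap, rose by 0.66 ± 0.16 (adjusted p = 0.0115), from 12.45 and 12.44 to 13.16 and 13.05. Psme3, which forms the nuclear 11S cap, differed by 0.41 and was not called. Psme4, a single large protein that caps the core without ATP, showed the largest difference of any member and fell. It read 12.38 and 12.34 in UNSC and 10.06 and 10.57 in UNPD, a difference of -2.05 ± 0.29, or 4.13-fold lower (adjusted p = 0.00145). Its next brightest probe sets gave -1.995 and -2.41. Psmf1, a protein that inhibits the core in the test tube, rose by 0.62 (adjusted p = 0.0491). Of the chaperones that pair subunits of the alpha ring, Psmg4, Psmg3 and Psmg1 rose by 0.89, 0.78 and 0.70, and Psmg2 differed by -0.05. Of those that assemble the 19S base, Psmd9 rose by 0.68 (adjusted p = 0.0286), and Psmd10 and Psmd5 differed by -0.01 and 0.01.

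How much of this difference is called depends on the scaling of the arrays. The deposited values share a trimmed mean, and the arrays with the lowest 75th percentile were those with the highest proteasome medians. With quantile normalization the median of the 45 genes was 0.36 against 0.31 for all genes. The members called numbered 19 higher and 5 lower, where 28.1% of all genes were called in either direction, and the alpha ring median came down to 0.04 with 0 of 7 higher and 1 lower. The standard beta ring kept 5 of 7 calls at a median of 0.45, the immunoproteasome 3 of 3 at 0.60, and the 20S chaperones 2 of 4 at 0.68. With each array set to a common 75th percentile, 34 were called higher and 1 lower, where 41.5% of all genes were called. With that percentile as a covariate 0 of 14581 genes were called, since it separates the UNPD arrays from the UNSC arrays as the label does; the 2 cannot be told apart in that fit. Members have short genes, with a median span of 11930 bases against 21315 for all genes tested. Psme4, which fell the most, has the longest span of the members, 109376 bases. Psmd1 and Psmc6, the others called lower, span 74677 and 19252 bases, and Psmd14, not called, spans 88683. Over the 6329 bright genes the UNPD against UNSC difference fell with gene span (Spearman's rho = -0.47, a description across genes that share the same arrays). After that trend was removed, 16 members were called higher and 2 lower; 6 of 7 standard beta subunits and 0 of 3 immunoproteasome subunits were among those called. Leaving out UNSC replicate 1 or 2 gave a median of 0.54 for the 45 genes, against 0.21 or 0.13 for all genes. Leaving out UNPD replicate 1 or 2 gave 0.52 or 0.59, against 0.17 or 0.24. In each of these 4 fits fewer members were called than with all arrays, and fewer of all genes. Without UNSC replicate 1, UNSC replicate 2 or UNPD replicate 1, the share of members called was below that of all genes. Psme4 stayed called in each of these single-array omissions.

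**Figure D2:**
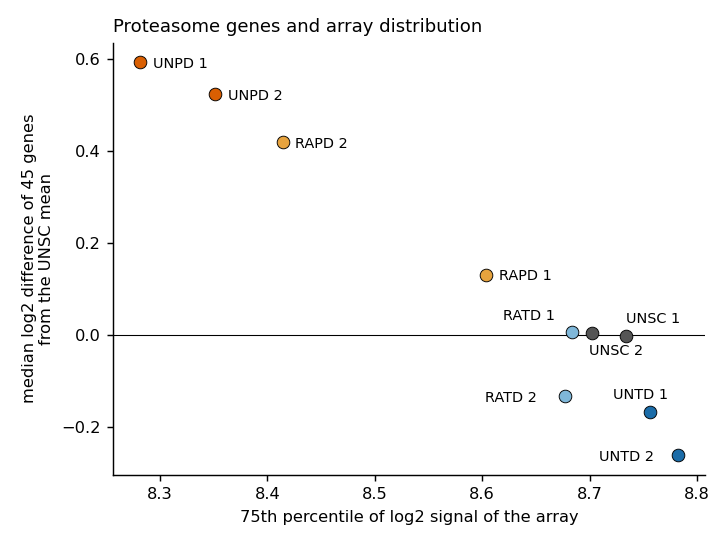
Median log2 difference of 45 proteasome genes from the UNSC mean (vertical axis) against the 75th percentile of log2 signal of the same array (horizontal axis), 1 point for each of 10 arrays coloured by group. The UNPD arrays and RAPD replicate 2 sit at the upper left, with percentiles of 8.28 to 8.41, and the UNTD arrays at the lower right.

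**Figure D3:**
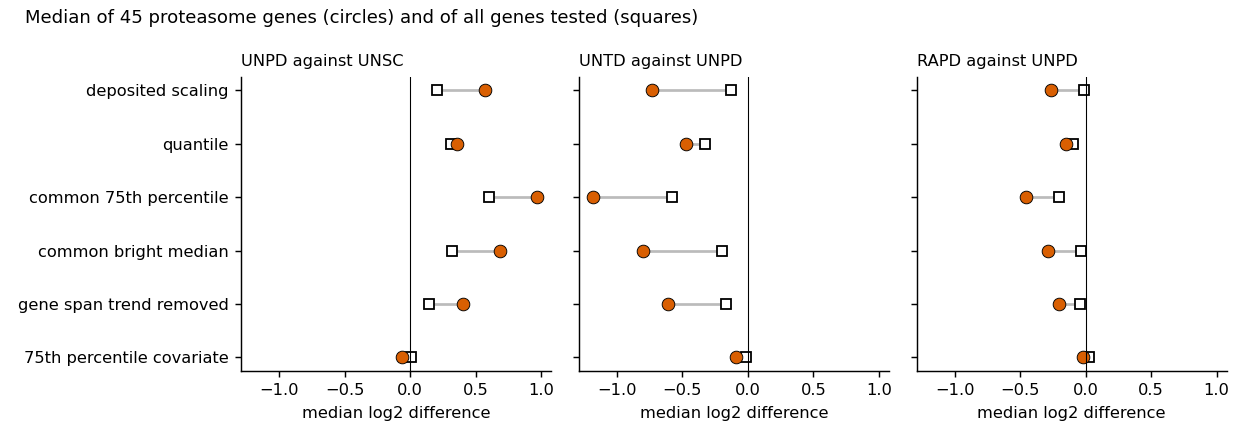
Median log2 difference of 45 proteasome genes (circles) and of all genes tested (squares) in 3 comparisons under 6 ways of scaling the arrays. In UNPD against UNSC the circle and the square stand at 0.57 and 0.20 under the deposited scaling and at 0.36 and 0.31 under quantile normalization.

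UNTD against UNPD compared the TD with the PD subset and shares the UNPD arrays with the comparison above, so the pair are not independent. Here 29 of 46 members were called lower and 2 higher, where the shares over all genes were 17.2% lower and 18.0% higher. Among the 6329 bright genes the shares were 31.0% lower and 25.4% higher. The median of the 45 genes was -0.73 against -0.13 for all genes. Every standard beta subunit fell, from -0.73 (Psmb2) to -1.07 (Psmb5, adjusted p = 0.000521), and all 7 were also called lower after quantile normalization and after removal of the gene span trend. Psmb5 read 12.93 and 12.68 in UNTD, below every UNPD array. Of the alpha ring 4 of 7 fell, with Psma5 at -1.04 and Psma6 at -0.91. Psma1 differed by 0.38 and was not called. Of the ATPases 5 of 6 fell, Psmc5, Psmc3 and Psmc4 by 1.17, 1.11 and 1.10 on the log2 scale. Psmc6 rose by 0.57 (adjusted p = 0.0398). The lid had 3 of 8 lower, among them Psmd3 at -1.08 and Psmd13 at -0.97. Among the assembly chaperones Psmg1 fell by 1.23, Psmd9 by 1.21, Psmg4 by 1.20 and Psmg3 by 1.13. The ubiquitin receptor Psmd4 fell by 0.74 and the inhibitor Psmf1 by 0.77.

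All 3 immunoproteasome subunits read lower here, and only Psmb8 was called. They were not tested against each other. Psmb8 fell, with 12.01 and 11.96 in UNTD, a difference of -0.87 ± 0.19 (adjusted p = 0.00388). Psmb9 read 11.80 and 11.90, a difference of -0.62 that was not called (adjusted p = 0.0561). Psmb10 read 12.02 and 11.99, a difference of -0.25 (adjusted p = 0.38). Psme1 fell by 0.78 and Psme3 by 0.95, whereas Psme4 rose by 1.63 ± 0.29 (adjusted p = 0.0013) to 12.05 and 11.83. Without UNPD replicate 1 the calls numbered 22, and over all single-array omissions 22 to 35.

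**Figure D4:**
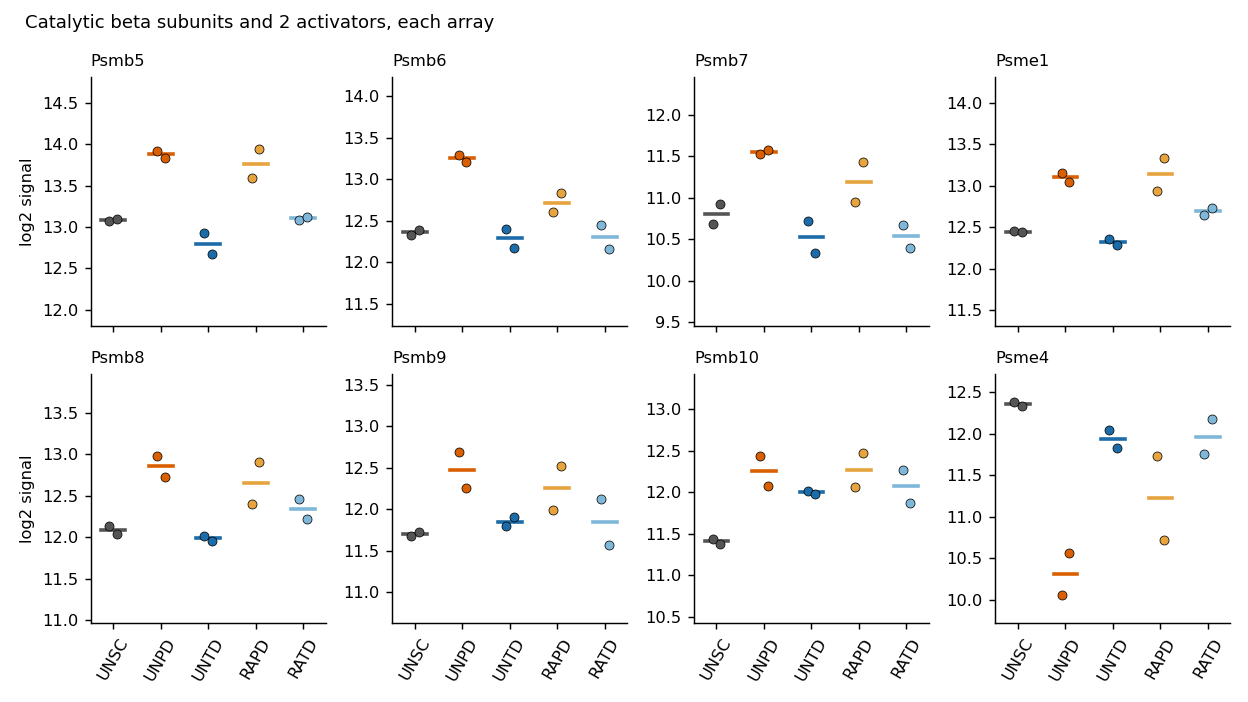
Log2 signal on each array (points) and group mean (bars) in the 5 groups for the standard catalytic subunits Psmb5, Psmb6 and Psmb7, for Psmb8, Psmb9 and Psmb10 that replace them, and for the activators Psme1 and Psme4; each panel spans 3 log2 units. UNPD is the highest untreated group in 7 panels and the lowest in that of Psme4, and Psmb10 stands above UNSC in every other group.

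UNTD against UNSC gave 0 calls among the 46 members in limma, where 4.96% of all genes rose and 3.20% fell. An unadjusted p below 0.05 was found for 11 of the 46, against 21.9% of all genes. The median of the 45 genes was -0.19 and 42 of 46 differences were negative. Psmd3, a lid subunit, had the smallest p: it read 11.26 and 11.07 in UNSC and 10.66 and 10.38 in UNTD, a difference of -0.64 ± 0.19 (adjusted p = 0.0625). Psmb10 read 11.44 and 11.38 in UNSC and 12.02 and 11.99 in UNTD, a difference of 0.59 ± 0.20 (adjusted p = 0.098), with no overlap. Psmb8 and Psmb9 differed by -0.10 and 0.15. Psmb10 was called after quantile normalization (0.68, adjusted p = 0.03) and in the fit on these groups alone (adjusted p = 0.003). That fit on the groups alone called 13 members, 1 higher and 12 lower, and a fit with array weights 11, 1 higher and 10 lower; these fits called 22.6% and 20.1% of all genes. Leaving out a RAPD or RATD array changed the count through the shared spread. The median stayed at -0.19, against -0.04 for all genes.

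The log2 signal of an immunoproteasome subunit minus that of the standard subunit it replaces was set to 0 at the UNSC mean. A single scaling factor of an array cancels in this measure. The shape of an array's signal distribution and a trend with gene span need not cancel. For Psmb10 minus Psmb7 this measure was 0.15 and -0.15 on the UNSC arrays, 0.30 and -0.11 in UNPD, 0.70 and 1.04 in UNTD, 0.51 and 0.44 in RAPD, and 0.997 and 0.86 in RATD. All UNTD, RAPD and RATD arrays lay above all UNSC and UNPD arrays. Psmb10 spans 2665 bases and Psmb7 55907, and the part of gene span or distribution shape in this separation was not tested. For Psmb8 minus Psmb5 the means were 0.18 ± 0.13 in UNTD and 0.22 ± 0.20 in RATD, against -0.03 ± 0.11 in UNPD and -0.12 ± 0.11 in RAPD (SD, n = 2). For Psmb9 minus Psmb6 they were 0.22 ± 0.23 in UNTD, 0.20 ± 0.19 in RATD, 0.19 ± 0.22 in RAPD and -0.12 ± 0.25 in UNPD (SD, n = 2). These pairs were given no test. The summed signals of the monocyte and dendritic genes and of the macrophage genes given above were highest in UNTD and RATD. The macrophage sum was 2057 to 5144 in RATD, 1955 to 2006 in UNSC, 1442 to 1655 in RAPD and 1460 to 1848 in UNPD. In RAPD, where Psmb10 minus Psmb7 lay above UNSC, the monocyte and dendritic sum was 2236 to 3555. The part of these cells in the subunit pairs was not tested.

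ATRA in the PD subset, RAPD against UNPD, gave 0 members higher and 2 lower, where 4.86% of all genes rose and 3.19% fell. Among the bright genes 7.76% rose and 5.45% fell. The median of the 45 genes was -0.26, against -0.01 for all genes. Both members called lower are chaperones of the alpha ring. Psmg4 read 11.83 and 11.54 in UNPD and 10.69 and 10.72 in RAPD, a difference of -0.98 ± 0.20 (adjusted p = 0.019). Psmg1 read 12.76 and 12.59 against 11.74 and 12.11, a difference of -0.75 ± 0.20 (adjusted p = 0.0434). Psmg3 differed by -0.72 (adjusted p = 0.0614) and Psmg2 by -0.37, and for all 4 chaperones both RAPD arrays lay below both UNPD arrays. Over the members 23 of 46 were apart in that way, against 28.5% of all genes. Psme4 read 11.73 and 10.72 in RAPD, a difference of 0.91 with the groups apart (adjusted p = 0.0728). The lid subunit Psmd3 differed by -0.61 (adjusted p = 0.0697). Among the catalytic subunits, Psmb6 differed by -0.53 (adjusted p = 0.0658), Psmb5 by -0.11, Psmb7 by -0.36, Psmb8 by -0.20, Psmb9 by -0.22 and Psmb10 by 0.02. Mature neutrophil genes moved in the same comparison: 3 of 6 rose, Mmp9 by 6.22, Ltf by 3.76 and Cxcr2 by 1.75, and their summed signal was 97771 to 125933 in RAPD against the 57562 to 64035 of UNPD. Their part in the member values was not tested. The count changed with each of the 10 arrays left out in turn. The median of the 45 genes was -0.11 without RAPD replicate 1, against 0.03 for all genes. Without RAPD replicate 2 it was -0.40, against -0.06 for all genes. Leaving out UNPD replicate 1 or 2 gave -0.23 or -0.29, against -0.01 or -0.05. Psmg4 was not called without RAPD replicate 1, UNPD replicate 1 or UNPD replicate 2.

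ATRA in the TD subset, RATD against UNTD, gave 0 calls among the 46 members in limma, where 0.192% of all genes rose and 0.0960% fell. An unadjusted p below 0.05 was found for 4 of the 46, against 10.7% of all genes. The median of the 45 genes was 0.10, against -0.007 for all genes. The 14 standard core genes all had positive differences, from 0.01 to 0.55, on the same arrays and so not independently. Psma6 had the largest, reading 13.16 and 13.06 in UNTD and 13.64 and 13.68 in RATD, a difference of 0.55 ± 0.14 (adjusted p = 0.142). Psmd9 and Psme3 differed by 0.53 and 0.47 (adjusted p = 0.372 and 0.388). Psmb5 differed by 0.31, with a 95% interval of -0.05 to 0.66. Of the 6 mature neutrophil genes, 2 rose, Ltf by 3.59 and Ngp by 1.38, with sums of 30447 to 47425 in UNTD and 77742 to 122493 in RATD; their part was not tested.

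The difference between the ATRA effects was tested directly, as the RATD against UNTD difference minus the RAPD against UNPD difference. No member was called by limma, where 0.0617% of all genes were called higher and 0.178% lower. An unadjusted p below 0.05 was found for 11 of the 46, against 14.9% of all genes. The value was positive for 41 of 46 members, with a median of 0.38, against 0.02 for all genes. The members share the same arrays, so their signs are not independent. The smallest p belonged to Psmg4 (0.95 ± 0.29, adjusted p = 0.197). Without RAPD replicate 2 the median was 0.54, against 0.08 for all genes. Without RAPD replicate 1 it was 0.24, against -0.02.

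After ATRA, RATD against RAPD gave 0 members higher and 3 lower, where 2.65% of all genes rose and 2.13% fell. Among the bright genes 3.24% rose and 4.19% fell. The median of the 45 genes was -0.31, against -0.06 for all genes. The 3 members called lower were core subunits. Psmb5 read 13.59 and 13.94 in RAPD and 13.09 and 13.12 in RATD, a difference of -0.66 ± 0.16 (adjusted p = 0.0423). Psma5 and Psma6 differed by -0.63 and -0.56 (adjusted p = 0.042 and 0.0455). Psme4 differed by 0.74 and Psmc6 by 0.48, without calls. Of all 10 single-array omissions none left the count at 3, including those of UNSC, UNPD and UNTD arrays, which enter through the shared spread. The median of the 45 genes was -0.48 without RAPD replicate 1, against -0.15 for all genes. Without RAPD replicate 2 it was -0.135, against -0.02. Leaving out RATD replicate 1 or 2 gave -0.40 or -0.21, against -0.02 or -0.03.

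**Figure D5:**
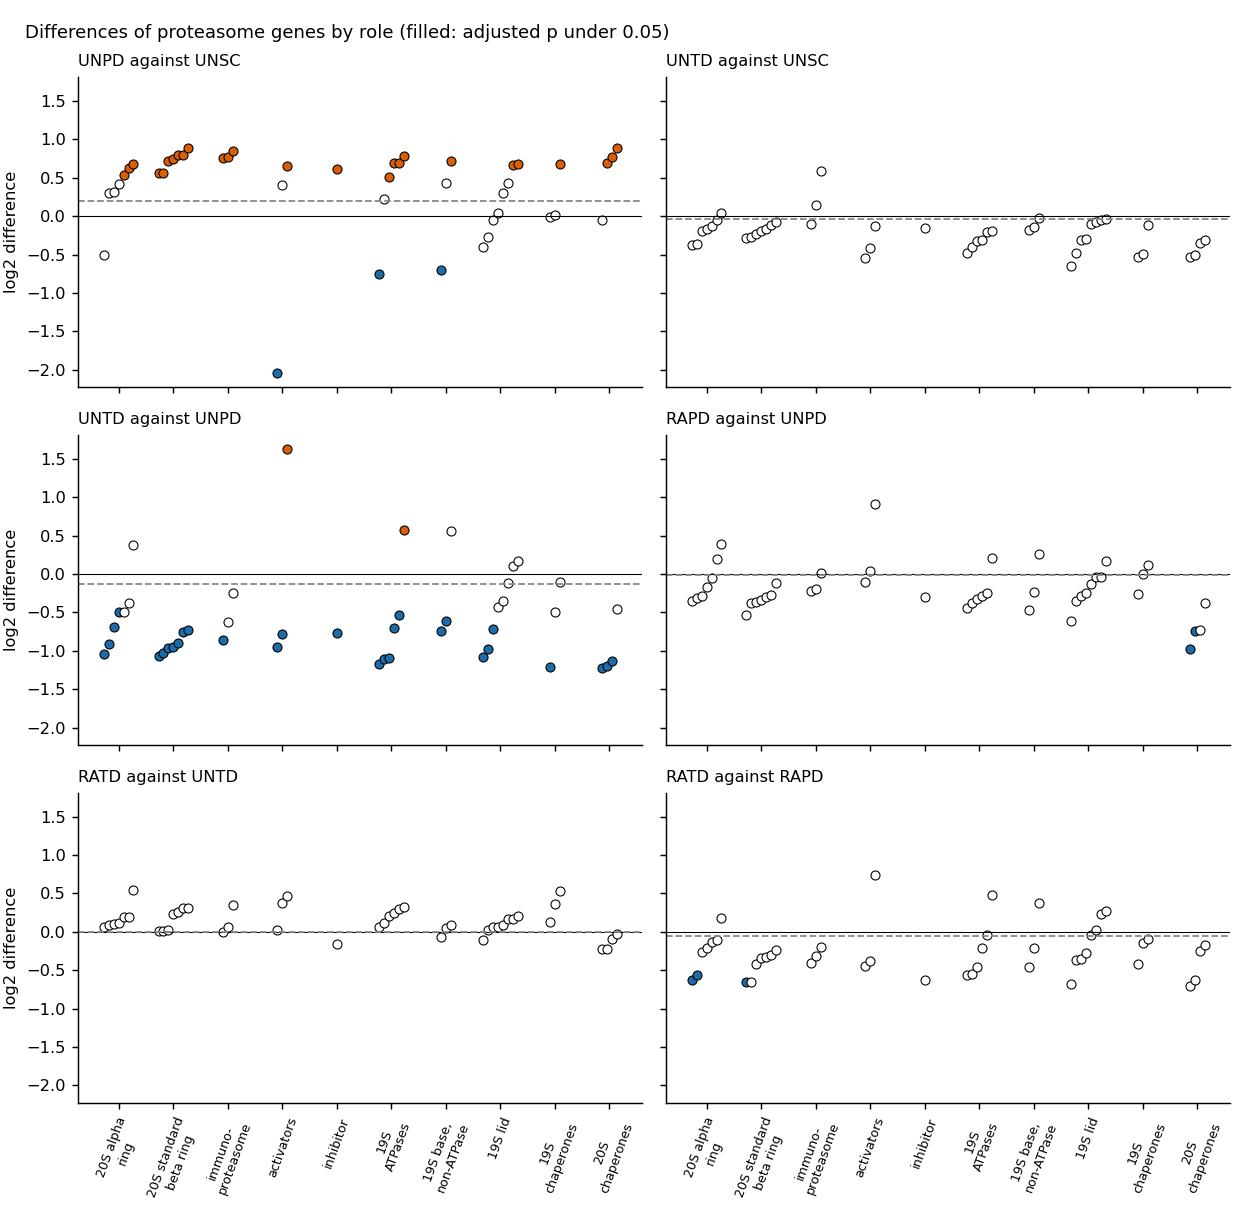
Log2 difference of each of 45 proteasome genes (circles, grouped by role along the horizontal axis) in 6 comparisons; orange is called higher, blue called lower and white not called, and the dashed line is the median of all genes tested. In UNPD against UNSC all 7 standard beta subunits are orange at 0.56 to 0.89, and in UNTD against UNPD all 7 are blue.

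Partner genes of the pathway moved in both directions. Of 16 measured among 25 listed, 2 were called higher and 5 lower in UNPD against UNSC. Over the 6329 bright genes the shares were 20.8% higher and 23.3% lower. The higher ones were Pomp (0.63), which matures the core, and Sem1 (0.59), a small lid subunit without a Psm symbol. Ecpas, a scaffold that holds core and regulatory particle together, fell the most: it read 10.85 and 11.09 in UNSC and 8.98 and 9.29 in UNPD, a difference of -1.83 ± 0.23 (adjusted p = 0.00123). Usp14, a deubiquitinase bound to the base, fell by 1.30, and Ngly1, the glycanase that activates Nfe2l1, by 1.12. Nfe2l1 itself differed by 0.28 and was not called (adjusted p = 0.338). In UNTD against UNPD 4 partners rose and 2 fell, with Nfe2l2, the oxidative stress factor, at 1.42, Ecpas at 1.57, Ngly1 at 1.18 and Pomp at -0.61. The bright-gene shares there were 25.4% higher and 31.0% lower. In RAPD against UNPD 2 rose, Ecpas by 0.82 and Nfe2l2 by 0.71, and in UNTD against UNSC 1, Nfe2l2 by 0.69. Of the bright genes, 7.76% and 6.07% were called higher in those comparisons.

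Genes of class I antigen presentation, which use immunoproteasome products, were also called in both directions. Of 13 measured among 14 listed, 2 rose and 3 fell in UNPD against UNSC. The shares over the bright genes were 20.8% higher and 23.3% lower. Tap2, a subunit of the peptide transporter, rose by 1.01 ± 0.21 (adjusted p = 0.00569). Erap1, the peptidase that trims peptides in the endoplasmic reticulum, fell by 2.11 ± 0.30 (adjusted p = 0.00145), from 10.16 and 10.03 to 7.71 and 8.25. The chaperone Canx fell by 1.15. In UNTD against UNPD 2 rose and 3 fell, with Erap1 at 1.90, Tap2 at -1.15 and the loading chaperone Tapbp at -0.54. The bright-gene shares were 25.4% higher and 31.0% lower. The interferon regulatory factor Irf1 rose by 0.95 in UNTD against UNSC, the single call in this list there, and by 1.06 in RAPD against UNPD, where Erap1 rose by 1.51. Of the bright genes, 6.07% and 7.76% were called higher in these comparisons. RATD against UNTD gave 0 calls in either list.

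Promoter windows were available for 39 of the 47 members in the RefSeq table (build GRCm38.p6), and the 250 bases before the start were searched on both strands. CCGGAAG, the letters of ETS factor sites, occurred in 12 of 39 members (30.8%), or 13 of their 41 windows, against 6.91% of 32851 windows. The member shares here count genes with a match in any window. The comparison counts all windows in the table, without matching for base composition. TGACNNNGC, the letters of the element read by Nfe2l1 and Nfe2l2, occurred in 5 members (12.8%) against 10.2%. CCAAT occurred in 35.9% against 33.8%, GAAANNGAA of interferon response elements in 7.69% against 7.13%, TTCNNNGAA of STAT factors in 5.13% against 7.02%, and CACGTG, the E-box of Myc, in 10.3% against 6.02%. By call in UNPD against UNSC, CCGGAAG was found for 4 of 22 genes called higher, 2 of 3 called lower and 6 of 14 not called. A match is a description of letters, and no binding was measured. The 250 bases before the start follow for the catalytic subunits whose exchange is described above, except Psmb7, which has no entry in the table, and for Psme4, the member with the largest difference in UNPD against UNSC, 5′ to 3′ in gene orientation, with matches in capitals.
Psmb5 (chr14:54617996-54618245, minus strand): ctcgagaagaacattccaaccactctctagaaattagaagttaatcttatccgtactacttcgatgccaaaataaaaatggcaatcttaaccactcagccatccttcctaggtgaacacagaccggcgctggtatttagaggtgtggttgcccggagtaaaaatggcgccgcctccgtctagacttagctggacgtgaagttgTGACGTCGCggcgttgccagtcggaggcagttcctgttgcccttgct
Psmb6 (chr11:70525107-70525356, plus strand): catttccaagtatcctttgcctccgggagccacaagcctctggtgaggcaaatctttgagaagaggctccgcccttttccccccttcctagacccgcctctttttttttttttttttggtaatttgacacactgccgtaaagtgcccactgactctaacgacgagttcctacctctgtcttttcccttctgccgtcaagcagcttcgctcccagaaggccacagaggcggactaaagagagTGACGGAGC
Psmb8 (chr17:34197945-34198194, plus strand): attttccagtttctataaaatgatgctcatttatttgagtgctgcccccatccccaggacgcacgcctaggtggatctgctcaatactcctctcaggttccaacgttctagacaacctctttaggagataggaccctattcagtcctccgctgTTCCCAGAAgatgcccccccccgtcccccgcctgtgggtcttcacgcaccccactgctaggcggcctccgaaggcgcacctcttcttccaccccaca
Psmb9 (chr17:34187331-34187580, minus strand): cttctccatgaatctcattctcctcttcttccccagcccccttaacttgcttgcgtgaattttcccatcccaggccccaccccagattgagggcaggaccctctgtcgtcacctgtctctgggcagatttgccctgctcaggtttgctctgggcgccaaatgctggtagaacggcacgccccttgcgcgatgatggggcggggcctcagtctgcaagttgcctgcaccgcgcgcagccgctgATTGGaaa
Psmb10 (chr8:105938393-105938642, minus strand): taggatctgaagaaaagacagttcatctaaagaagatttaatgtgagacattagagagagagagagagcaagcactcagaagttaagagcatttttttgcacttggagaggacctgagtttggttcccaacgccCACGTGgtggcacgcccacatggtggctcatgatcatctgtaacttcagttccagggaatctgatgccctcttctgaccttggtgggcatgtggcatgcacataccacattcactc
Psme4 (chr11:30771525-30771774, plus strand): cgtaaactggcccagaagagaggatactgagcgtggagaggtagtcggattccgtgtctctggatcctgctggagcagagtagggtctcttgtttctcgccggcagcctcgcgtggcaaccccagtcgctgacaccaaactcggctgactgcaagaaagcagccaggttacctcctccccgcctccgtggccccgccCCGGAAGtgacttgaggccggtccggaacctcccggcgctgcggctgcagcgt
The capitals mark TGACNNNGC in Psmb5 (47 to 39 bases before the start) and in Psmb6 (9 to 1 bases before it), TTCNNNGAA in Psmb8, CCAAT on the opposite strand in Psmb9, CACGTG in Psmb10 (116 to 111 bases before the start), and CCGGAAG in Psme4 (53 to 47 bases before the start). Psmb8 and Psmb9 lie on either side of Tap1 on chromosome 17, and the window of Psmb9 overlaps that of Tap1, which is read on the other strand.

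Bright probe sets of a gene mostly had the same sign, though not always the same size. Of 14 members with several probe sets as bright as that limit of 9, 12 had the same sign on all of them in UNPD against UNSC, the exceptions being Psmd11 and Psmd6. In that comparison the 2 brightest probe sets gave 0.51 and 0.05 for Psmc2 and 0.54 and 0.24 for Psma6. They gave 0.68 and 0.63 for Psma5 and 0.63 and 0.70 for Psma7. Dim probe sets differed more: averaging all kept probe sets turned Psma6 to -0.67 and Psmc2 to -0.12 in UNPD against UNSC.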

How the data were processed

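RNA was measured on 10 single-colour arrays. The deposited table holds 45037 probe sets with values on a log2 scale, which the authors made with MAS5, per the submitters' processing notes; the version and the scanner settings are not given in the sources used here. MAS5 scaling sets the trimmed mean of each array and nothing else of its distribution, and no detection call accompanied the values. Probe sets were named through GEO's platform annotation: 34945 had 1 symbol, 932 several and 9160 none. Members were found by symbol, and the probe set with the highest mean stood for a gene. limma 3.58.1 in R 4.3.3 fitted 5 group means with an intensity trend (5 residual degrees of freedom), with 6 two-sided contrasts and their interaction, Benjamini-Hochberg over 14581 genes and a threshold of 0.05; the fit was tested on simulated data. The number of arrays limits the precision. The members, role lists, partner lists and motifs were chosen with earlier results of these data known. The rule named the catalytic and immunoproteasome subunits and Psme1, the called members with the 5 largest differences in each direction, the member of smallest p in each role, and the 3 genes of smallest p in each partner list; role and partner genes without a call are not all given. Other genes and the motif counts by call were named after their values were seen. Alternatives covered scaling, filters, probe sets, weights, covariates, the replicate block, a signal floor and each array left out; a common median of bright genes and removal of the gene span trend were added after seeing the data, as was a block with the RAPD numbers crossed. Gene spans are those of RefSeq's GRCm38.p6 genes.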

Additional observations from a re-analysis of the deposited data

How the results depend on the processing

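With 2 arrays a group, the number of arrays limits every count below. Of 351 differences of named genes, 187 kept their direction and their side of the threshold under every alternative that could be fitted. For UNPD against UNSC the count of 29 member calls came to 8 without the intensity trend, 18 with the gene span trend removed and 0 with the 75th percentile as covariate. In these fits 15.9%, 22.9% and 0% of all genes were called, against 25.8% in the main fit. For UNTD against UNPD the count of 31 lay between 23 and 40 under the other alternatives and was 0 with that covariate. Over all genes 27.3% to 51.3% were called under those alternatives, and 0% with the covariate. For UNTD against UNSC, with 0 calls, it was 3 after quantile normalization, 3 with the span trend removed, 1 with the mean of probe sets, 1 with the covariate, 11 with array weights and 13 in the fit of those groups alone. The shares over all genes, in that order, were 9.87%, 9.88%, 7.48%, 9.59%, 20.1% and 22.6%. For RAPD against UNPD the count of 2 became 5 with a common 75th percentile, where 12.6% of all genes were called. The count was 1 with quantile normalization, no filter, the mean of probe sets, a floor of 32, the groups alone or the span trend removed. In those fits 3.18% to 6.56% of all genes were called. It was 0 without the intensity trend or with the covariate, where 0.199% and 0.103% of all genes were called. RATD against UNTD had 1 call after quantile normalization, where 0.514% of all genes were called. For RATD against RAPD the count of 3 became 7 with a common 75th percentile, where 7.69% of all genes were called. It became 0 with no filter, the mean of probe sets, no intensity trend, array weights, the covariate, a floor of 32 or the groups alone. Those fits called 0.0549% to 3.18% of all genes. The interaction kept 0 calls under all of these. The cause of these shifts was not tested.

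With the replicate block the counts were 27 for UNPD against UNSC, 30 for UNTD against UNPD, 1 for RAPD against UNPD and 0 for RATD against RAPD. The shares over all genes, in that order, were 23.1%, 33.6%, 5.36% and 2.54%. The deviations of same-numbered arrays had a correlation of -0.50 for RAPD and UNPD, and of -0.095 to 0.10 for the other pairs compared. What the shared numbers stand for was not tested. With the RAPD numbers crossed in the block, RAPD against UNPD had 6 calls. Leaving out 1 array at a time gave 3 to 29 calls for UNPD against UNSC, 0 to 3 for UNTD against UNSC, 22 to 35 for UNTD against UNPD, 0 to 10 for RAPD against UNPD, 0 to 0 for RATD against UNTD, 0 to 17 for RATD against RAPD and 0 to 7 for the interaction.

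Among the differences called, signs turned only under the covariate and the mean of probe sets; differences not called are not counted here. With the 75th percentile as covariate, no gene was called in UNPD against UNSC or UNTD against UNPD. The UNPD against UNSC differences there were Psmb1 -0.21, Psmb2 -0.059, Psmb4 -0.024, Psmb7 -0.24, Psmb8 -0.27, Psmb9 -0.43, Psmb10 -0.10, Psmc3 -0.16, Psmc5 -0.050, Psmc6 0.27, Psmd8 -0.016, Psmd9 -0.42, Psmd13 -0.41, Psme1 -0.15, Psme4 0.031 and Psmg1 -0.088. Those of partners were Canx 0.43, Ngly1 0.44, Pomp -0.20, Sem1 -0.21, Tapbp -0.14, Uchl5 0.78 and Usp14 0.20. The UNTD against UNPD differences were Psma3 0.048, Psmb1 0.10, Psmb7 0.091, Psmb8 0.30, Psmc6 -0.60, Psmd4 0.016, Psmd8 0.063, Psmd9 0.021, Psmd13 0.24, Psme1 0.12 and Psme4 -0.71. Those of partners were Calr 0.40, Canx -1.02, Erap1 -0.36, Ngly1 -0.58, Pomp 0.32, Tapbp 0.31 and Usp14 -0.63. With the mean of probe sets, UNPD against UNSC gave Psma6 -0.67, Psmc2 -0.12 and Tapbp -0.053, UNTD against UNPD gave Psma6 0.58 and Rad23b 0.46, and RATD against RAPD gave Psma6 0.33.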
